A study of Mus musculus with 6 samples.

Results

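Genes that build the same respiratory machinery from separate genomes were compared: the 13 protein genes of mitochondrial DNA and 34 nuclear genes for subunits of complex I. The members were taken by symbol, all 13 mitochondrial protein genes and a named list of nuclear complex I subunits, 47 of the 38924 genes in the count files. The tissue was cartilage of the anterior nasal septum from C57BL/6 mouse embryos at embryonic day 14.5, cut from frozen sections by laser. Of 6 embryos, 3 were wild type (WT) and 3 carried Fgfr2+/S252W with EIIA-Cre (Apert), a model of the craniofacial disorder Apert syndrome in which 1 copy of the FGF receptor gene Fgfr2 holds the point mutation S252W. EIIA-Cre is driven by an adenoviral promoter that is active in the early embryo, and the labels list no Cre for the WT embryos. Each library came from a separate mouse and from 15 ng of RNA that was amplified to cDNA before sequencing, per the labels.

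Complex I takes electrons from NADH, passes them to ubiquinone and pumps protons across the inner mitochondrial membrane. Its membrane arm is built around 7 hydrophobic proteins made from mitochondrial DNA, while the peripheral arm with the redox centres and all accessory subunits are nuclear products imported from the cytosol. Mitochondrial messenger RNAs are cut from long transcripts of both strands of a circular genome that is present in many copies per cell. Cartilage has no blood vessels, and its cells are known for a strong reliance on glycolysis.

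Of the 13 mitochondrial genes, 6 need a caution about their sequence before their values are read. The genes mt-Co2, mt-Atp8, mt-Atp6, mt-Co3, mt-Nd3 and mt-Nd4l lie side by side on the mitochondrial chromosome, from mt-Co2 (chrM:7013-7696, plus strand) to mt-Nd4l (chrM:9877-10173, plus strand). Chromosome 1 holds pseudogene copies of this stretch and of parts of the flanking genes mt-Co1 and mt-Nd4. In all there are 7 in 4663 bases on the minus strand (chr1:24611535-24616197, GRCm38). In GENCODE M21 transcripts, 98.99% to 99.87% of the length of mt-Co2, mt-Atp6, mt-Co3, mt-Nd3 and mt-Nd4l matched such a copy at 99% identity or more. The lowest identity of the closest copy among these 5 genes was 99.71%, for mt-Nd3. No annotated copy was matched to mt-Atp8, which lies between the copied genes mt-Co2 and mt-Atp6. The first 100 bases of mt-Co2 and of its copy Gm28661 (chr1:24615466-24615565, minus strand) are shown because they are the same letter for letter, and a read of 100 bases from there fits both places. The same window of mt-Nd3 (chrM:9459-9558, plus strand) and its copy Gm28438 (chr1:24613020-24613119, minus strand) follows, with the base that differs in capitals.
mt-Co2: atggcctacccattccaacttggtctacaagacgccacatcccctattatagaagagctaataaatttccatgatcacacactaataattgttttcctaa
Gm28661: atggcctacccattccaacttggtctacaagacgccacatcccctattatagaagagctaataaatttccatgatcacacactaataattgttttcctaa
mt-Nd3: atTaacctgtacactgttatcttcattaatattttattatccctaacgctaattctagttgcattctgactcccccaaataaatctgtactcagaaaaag
Gm28438: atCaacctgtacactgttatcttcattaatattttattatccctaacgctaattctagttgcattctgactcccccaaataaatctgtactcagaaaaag

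Outside that stretch, copies at 99% identity or more covered part of a gene or none of it. The mt-Nd4 copy Gm28439 matched 876 bases at 100% identity, and the mt-Co1 copy Gm29216 matched 483 bases at 99.79%. A copy at 99% identity or more covered 63.6% of mt-Nd4 and 31.3% of mt-Co1, and none covered mt-Nd1, mt-Nd2, mt-Nd5, mt-Nd6 or mt-Cytb at that identity. At 95% identity or more, 100% of mt-Co1 was covered. The closest copy of mt-Nd2 was Gm13339 on chromosome 2, which matched 510 bases at 96.67% identity. A window of it (chr2:22590434-22590533, minus strand) is set below the matching window of mt-Nd2 (chrM:4442-4541, plus strand), again with differing bases in capitals, to show how a read can be told from a copy. All windows were read from GENCODE M21 transcripts, and gene positions are those of the count files on the same build (GRCm38, mm10). Of the 34 nuclear members, 3 had any stretch with a copy at 99% identity (Ndufa12, Ndufb4 and Ndufs5), and none was covered over 90% of its length.
mt-Nd2: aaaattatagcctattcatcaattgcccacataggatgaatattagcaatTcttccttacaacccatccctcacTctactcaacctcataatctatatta
Gm13339: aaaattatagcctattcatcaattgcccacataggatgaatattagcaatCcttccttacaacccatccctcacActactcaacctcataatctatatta

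The levels of the mitochondrial genes split along that line. Over the 6 libraries the 6 genes of the copied stretch had 13 to 529 counts per gene and library, and the other 7 had 2675 to 133581. Per kilobase of gene length, the mean level was 7.499 to 58.5 CPM (a gene's count set against its library's scaled total) for the 6 genes and 945 to 7263 for the other 7. The medians were 26.1 and 3729 CPM per kilobase, against 7.05 for the nuclear members, whose levels ran from 0.770 to 26.3. So the median of the 7 genes outside the stretch was 529 times the nuclear median on the scale per length. Gene length here covers all annotated exons, which for some nuclear genes is far more than a transcript. Ndufb7 has 4522 bases against 623 in its longest coding transcript, while Ndufa1 has 419 in both. The nuclear median per kilobase may thus be set too low and the ratio too high. Reads that match several places were not counted under the options in the file headers. Together the 6 genes gave 0.191% ± 0.00342 (SD, n = 3) of the mitochondrial protein gene counts in WT and 0.255% ± 0.0190 in Apert. The part of the copies in these low counts was not tested.

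**Figure D1:**
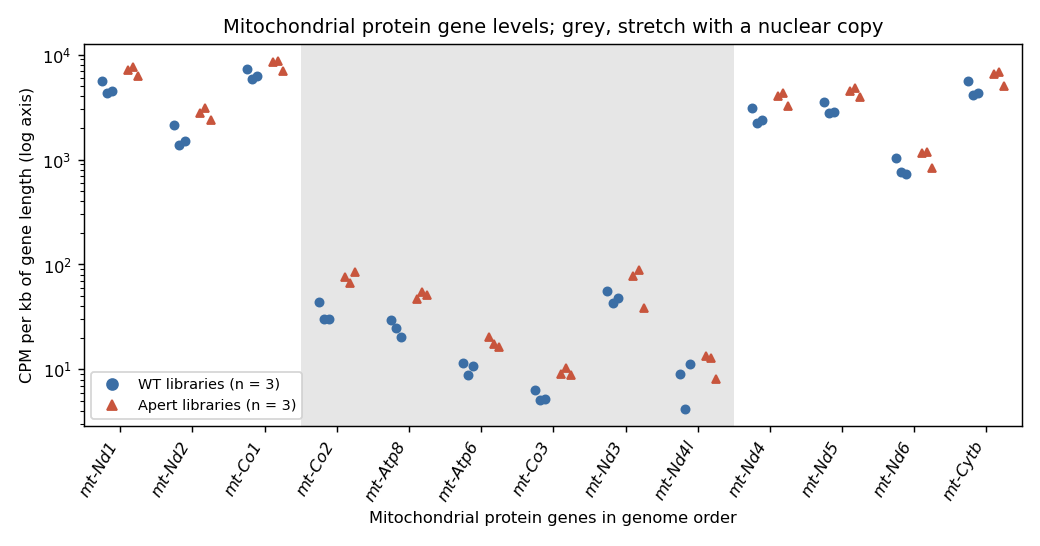
Level of each mitochondrial protein gene in CPM per kilobase of gene length (log axis), in genome order, with circles for the 3 WT and triangles for the 3 Apert libraries. The 6 genes in the grey band, the copied stretch, lie between 4.22 and 88.8 CPM per kilobase, and the 7 others between 726 and 8620.

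Levels per kilobase use the full gene length, so mt-Nd4 and mt-Co1, with copies over 63.6% and 31.3% of their length, may be set too low and their places are uncertain. On that scale, the order of the 7 genes outside the stretch in WT libraries began with mt-Co1, the catalytic subunit of cytochrome c oxidase, at 6477 ± 729 CPM per kilobase (SD, n = 3). Next came mt-Nd1 at 4817 ± 733 and mt-Cytb, the core of complex III, at 4682 ± 853, 2 neighbours that differ by less than their spread. Then followed mt-Nd5 at 3035 ± 425 and mt-Nd4 at 2563 ± 448, again within their spread of each other. Below them stood mt-Nd2 at 1671 ± 404 and mt-Nd6, the protein gene of the light strand, at 835 ± 164. Counting ignored strand, so the value of mt-Nd6 can hold RNA of either strand, and its part from the light strand was not measured. mt-Nd6 also shares 14 bases with mt-Nd5 on the opposite strand, where the 2 cannot be told apart. In Apert libraries, with the same limit, values ran from mt-Co1 at 8049 ± 948 to mt-Nd6 at 1056 ± 192 CPM per kilobase.

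The comparison of WT with Apert asks whether the Fgfr2 mutation goes with a change in either genome's share of the respiratory machinery. The 13 mitochondrial protein genes all had higher fitted levels in Apert than in WT, and the 34 nuclear genes were spread around no change. The median log2 fold change was 0.54 over the mitochondrial genes, with a range of 0.31 to 1.12, and 0.10 over the nuclear ones, with a range of -0.95 to 0.92. Over all 13333 genes tested the median was 0.01, and 51.1% had a positive value. All 47 members passed the filter on low counts. One member passed the test across all genes, edgeR's quasi-likelihood test with Benjamini-Hochberg adjustment at 0.05: mt-Co2, higher in Apert. That is 1 of 13 mitochondrial and 0 of 34 nuclear genes, where 0.398% of all tested genes were called higher in Apert and 0.0525% lower. DESeq2 and limma-voom each called 5 mitochondrial genes higher, mt-Nd1, mt-Nd2, mt-Nd4, mt-Nd5 and mt-Co2, and 0 nuclear genes, where they called 1.07% and 0.443% of all tested genes higher. At an unadjusted p under 0.05, edgeR had 10 of 13 mitochondrial genes higher, against 6.35% of all tested genes. It had 1 nuclear gene of 34 higher and 1 lower, where 5.01% of all tested genes were lower. Because whole captured tissue was measured, fewer cells of a type and less RNA per cell cannot be told apart in any of these values.

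**Figure D2:**
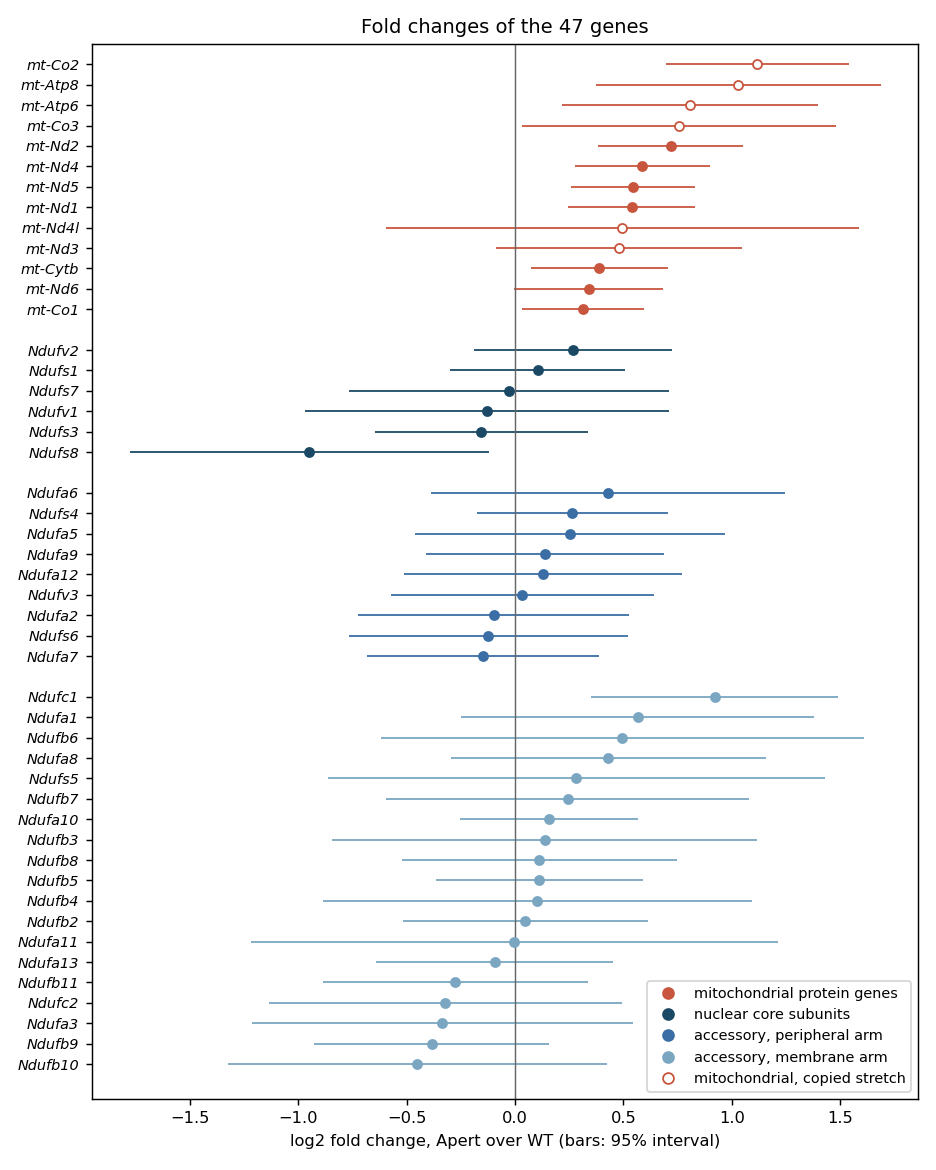
Fitted log2 fold change of each of the 47 genes, Apert over WT, with its 95% interval from the edgeR fit. The mitochondrial genes (top) all lie to the right of 0, from 0.31 to 1.12, while the nuclear genes of the 3 role groups lie on both sides of 0, with Ndufc1 at 0.92 and Ndufs8 at -0.95 at their ends.

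Among the mitochondrial subunits of complex I, mt-Nd1, mt-Nd2, mt-Nd4 and mt-Nd5 had every Apert library above every WT library, as did 8.92% of all tested genes. The gene mt-Nd1 (chrM:2751-3707), whose product sits where the arms of the complex meet, had 5408, 4092 and 4329 CPM in WT and 6796, 7356 and 5921 CPM in Apert. Its log2 fold change was 0.54 with an SE of 0.14 and an edgeR adjusted p of 0.105. All 3 Apert values lie above the highest WT value, which is that of WT replicate 1. The proton-pumping subunits are encoded by mt-Nd2, mt-Nd4 and mt-Nd5, which resemble bacterial antiporters. mt-Nd2 (chrM:3914-4951) had 2215, 1443 and 1546 CPM in WT against 2873, 3202 and 2480 in Apert. Its log2 fold change of 0.72 (SE 0.16, edgeR adjusted p = 0.0599) was the highest of the 7 genes outside the copied stretch. mt-Nd4 (chrM:10167-11544) had 4235, 3081 and 3282 CPM in WT against 5495, 5946 and 4484 in Apert. Here too the groups do not overlap, but Apert replicate 3 is close to WT replicate 1. mt-Nd5 (chrM:11742-13565) had 6429, 5030 and 5149 CPM in WT against 8236, 8799 and 7172 in Apert. The log2 fold changes of mt-Nd4 and mt-Nd5 were 0.59 (SE 0.15) and 0.54 (SE 0.14), each with an edgeR adjusted p of 0.0955.

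The remaining complex I genes of mitochondrial DNA encode small membrane subunits and had groups that overlap. mt-Nd6 (chrM:13552-14070, minus strand) had 531, 392 and 377 CPM in WT and 597, 613 and 433 in Apert. Apert replicate 3 falls inside the WT range, and the log2 fold change was 0.34 (SE 0.16, edgeR adjusted p = 0.446). In the copied stretch, mt-Nd3 had 19.4, 15.0 and 16.7 CPM in WT and 26.9, 30.9 and 13.3 in Apert. Here Apert replicate 3 was the lowest of all 6 libraries, and the log2 fold change was 0.48 with an SE of 0.27. mt-Nd4l was counted least, with 31, 13 and 31 reads in WT and 40, 28 and 15 in Apert, or 2.69, 1.25 and 3.36 CPM against 3.97, 3.81 and 2.43. Its log2 fold change of 0.49 had an SE of 0.52, so at this depth a difference was not detectable. Its copy on chromosome 1, Gm10222, is itself a row of the count files, with 151, 120 and 90 counts in WT and 181, 152 and 119 in Apert.

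Outside complex I, mt-Co2 was the called gene. It encodes the subunit of cytochrome c oxidase that receives electrons from cytochrome c. It had 30.1, 20.6 and 20.8 CPM in WT and 52.5, 45.5 and 57.5 in Apert, that is 347, 214 and 192 counts against 529, 334 and 355. The groups are apart, with the lowest Apert library at 45.5 and the highest WT library at 30.1 CPM. The log2 fold change was 1.12 (SE 0.20, 95% interval 0.69 to 1.54, edgeR adjusted p = 0.0215). The call was lost with GC correction (edgeR adjusted p = 0.167) and without WT replicate 2, WT replicate 3, Apert replicate 2 or Apert replicate 3 (edgeR adjusted p from 0.0765 to 0.127). In those left-out fits edgeR called 0 to 22 of all tested genes higher, against 53 in the reported fit. This is the gene whose first 100 bases are printed above with an identical copy. The part of the copy in that value was not tested.

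The other subunits of cytochrome c oxidase moved less or were counted less. mt-Co1 (chrM:5328-6872) had 11257, 9071 and 9695 CPM in WT and 13245, 13318 and 10746 in Apert. Apert replicate 3 lies below WT replicate 1, and the log2 fold change of 0.31 (SE 0.13, edgeR adjusted p = 0.384) was the smallest of the 13. mt-Co3, in the copied stretch, had 4.94, 4.05 and 4.11 CPM in WT and 7.04, 8.17 and 6.97 in Apert, without overlap. Its log2 fold change was 0.76 with an SE of 0.34 and an edgeR adjusted p of 0.421. mt-Cytb (chrM:14145-15288) belongs to complex III and had 6473, 4666 and 4929 CPM in WT and 7479, 7767 and 5798 in Apert. Its Apert replicate 3 falls below WT replicate 1. Its log2 fold change was 0.39 (SE 0.15, edgeR adjusted p = 0.328).

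Both mitochondrial subunits of ATP synthase lie in the copied stretch, and their groups did not overlap. mt-Atp6, part of the proton channel, had 7.80, 5.98 and 7.36 CPM in WT and 13.8, 11.98 and 11.2 in Apert. mt-Atp8, a small subunit beside it, had 5.98, 5.11 and 4.11 CPM in WT and 9.52, 11.2 and 10.5 in Apert. Their log2 fold changes were 0.81 (SE 0.28) and 1.03 (SE 0.31), with edgeR adjusted p values of 0.258 and 0.178. The genes overlap by 43 bases, 21.1% of mt-Atp8, and fragments there cannot be assigned to either. In all, 8 of the 13 mitochondrial genes had every Apert library above every WT library, against 8.92% of all tested genes, and 0 of 13 were lower without overlap, against 7.7%. These 13 are not independent of each other, since they come from shared precursor transcripts in the same libraries.

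The nuclear core subunits carry the redox path of the peripheral arm, and 4 of these 6 genes had negative and 2 positive fold changes, with a median log2 value of -0.08. None was called by edgeR. The lowest was Ndufs8 (chr19:3908870-3912717, minus strand), whose product holds iron-sulfur clusters near the ubiquinone site. It had 9.45, 7.42 and 5.20 CPM in WT and 3.77, 5.17 and 2.43 in Apert. WT replicate 3 and Apert replicate 2 all but touch, and no Apert library reaches a WT one. The log2 fold change was -0.95 (SE 0.39, unadjusted p = 0.0269, edgeR adjusted p = 0.366), from 15 to 109 counts per library. Ndufv2, an iron-sulfur protein of the NADH-oxidising tip, had the other end of the core range at 0.27 (SE 0.22). Ndufs1, Ndufs3, Ndufs7 and Ndufv1 had log2 values of 0.11, -0.15, -0.03 and -0.13, each smaller than its SE, and their groups overlapped. Ndufs1 and Ndufs3 share exon bases with Ino80dos and Kbtbd4 on the opposite strand.

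The 9 accessory subunits of the peripheral arm had a median log2 value of 0.13, with 6 positive and 3 negative, and 0 called. Ndufs4 (chr13:114287795-114388094, minus strand), a subunit that stabilises the arm and whose loss causes Leigh-like disease in mice, had the smallest p of the group. It had 40.1, 32.3 and 27.3 CPM in WT and 50.7, 34.7 and 34.2 in Apert, and the ranges overlap. Its log2 value was 0.27 (SE 0.21, edgeR adjusted p = 0.685). Ndufa6 (chr15:82350139-82354291, minus strand), a small protein of the LYR family, had 6.15, 2.99 and 4.76 CPM in WT and 5.35, 5.58 and 7.94 in Apert. Its log2 value of 0.43 had an SE of 0.39, and WT replicate 1 lies above 2 of the Apert libraries. The others, Ndufv3, Ndufs6, Ndufa2, Ndufa5, Ndufa7, Ndufa9 and Ndufa12, lay between -0.15 and 0.25, and all of their groups overlapped.

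The largest nuclear group, 19 accessory subunits of the membrane arm, had a median log2 value of 0.11, with 12 positive and 7 negative, and 0 called. Ndufc1 (chr3:51404677-51408988, minus strand), a short subunit that spans the membrane, stood highest. It had 9.01, 7.81 and 7.25 CPM in WT and 12.2, 15.4 and 18.3 in Apert. The groups are apart, and its log2 value was 0.92 (SE 0.27, unadjusted p = 0.00321, edgeR adjusted p = 0.168). In 34 nuclear genes, Ndufc1 was the 1 with every Apert library higher and Ndufs8 the 1 with every Apert library lower, 1 each where the shares over all tested genes were 8.92% and 7.7%.

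Among the other membrane-arm genes that stood furthest from 0, the groups overlapped in every case. The X-linked Ndufa1 (chrX:37187588-37191163) had 5.98, 2.60 and 4.55 CPM in WT and 6.94, 6.67 and 5.83 in Apert, with a log2 value of 0.57 (SE 0.39). Ndufb6 (chr4:40270591-40279421) had 4.59, 1.64 and 1.52 CPM in WT and 4.76, 3.27 and 2.92 in Apert, with a log2 value of 0.50 (SE 0.53). In both genes WT replicate 1 was the WT library that reached the Apert range. Ndufb6 shares 39% of its exon bases with Smim27 on the opposite strand, so its counts are uncertain. On the lower side, Ndufb10 (chr17:24722060-24724478) had 8.23, 5.11 and 5.95 CPM in WT and 4.56, 7.21 and 2.27 in Apert, with a log2 value of -0.45 (SE 0.42). Ndufb9 (chr15:58933810-58939489) had 23.0, 19.0 and 16.2 CPM in WT and 18.1, 10.1 and 16.4 in Apert, with a log2 value of -0.38 (SE 0.26). These genes encode accessory proteins of the distal membrane arm. Ndufa3 (chr7:3617373-3620163) had 3.81, 4.92 and 4.44 CPM in WT and 4.07, 3.54 and 2.75 in Apert, with a log2 value of -0.33 (SE 0.42). The remaining 13 genes of this group lay between -0.32 (Ndufc2) and 0.43 (Ndufa8). Ndufa10, the most highly counted of them, had a mean of 29.0 ± 1.37 CPM in WT and 32.2 ± 5.79 in Apert (SD, n = 3). Ndufa11, the least over all 6 libraries, had 2.04 ± 0.53 and 2.06 ± 1.20 CPM from 8 to 27 counts per library.

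RefSeq promoter windows of GRCm38.p6, 250 bases before to 50 after each start, were matched for 31 of the 34 nuclear genes. They were searched on both strands for short letter strings of factors known from respiratory genes. The YY1 letters AAGATGGC were present in 7 of 31 (22.6%), Ndufs7, Ndufs4, Ndufs6, Ndufa9, Ndufa3, Ndufb8 and Ndufc1, against 3.19% of 27025 genes in the table. All 7 matches lay on the strand of the gene, with the first base 23 to 39 after the start. The string holds ATG, the letters of a start codon, and whether these matches are factor sites or coding starts was not tested. The NRF1 letters GCATGCGC were present in 3 (9.68%, against 3.05%), and on the 2 strands of Ndufa11 their matches overlap. The ETS letters CCGGAAG were present in 4 (12.9%, against 9.93%), and no gene held the letters of more than 1 factor. Windows around the matches of Ndufc1 (chr3:51408916-51408943, gene on the minus strand, first motif base 23 after the start) and Ndufs8 (chr19:3912743-3912769, gene on the minus strand, first motif base 16 after the start) are printed because these genes stood at the ends of the nuclear range. Motif letters are in capitals. The 7 genes with YY1 letters had log2 values from -0.33 (Ndufa3) to 0.92 (Ndufc1), so they did not share a direction.
Ndufc1: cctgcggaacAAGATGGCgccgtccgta
Ndufs8: taggctccgcCTTCCGGttgaaccgca

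The balance of the genomes was then read within each library, where scaling between libraries has no effect. The summed counts of the 13 mitochondrial genes were 89.1, 78.9 and 87.8 times those of the 34 nuclear genes in WT and 112, 127 and 96.6 times in Apert. Every Apert library had a higher ratio than every WT library, with means of 85.3 ± 5.53 and 112 ± 15.1 (SD, n = 3). The mean log2 ratio was 0.38 higher in Apert. The difference between the median log2 fold changes of the genomes was 0.44. No p is given for these sums, since the members were chosen with earlier results of these data known. Most of the difference lay on the mitochondrial side: summed mitochondrial CPM were 36619, 27825 and 29363 in WT and 44835, 47112 and 37136 in Apert. The highest WT and the lowest Apert library are nearly level there. Summed nuclear CPM were 411, 353 and 335 in WT and 401, 372 and 385 in Apert, and the groups overlapped. As a share of all counts, without scaling, the mitochondrial protein genes held 3.90%, 2.87% and 3.14% in WT and 4.30%, 4.58% and 3.39% in Apert, which overlap.

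**Figure D3:**
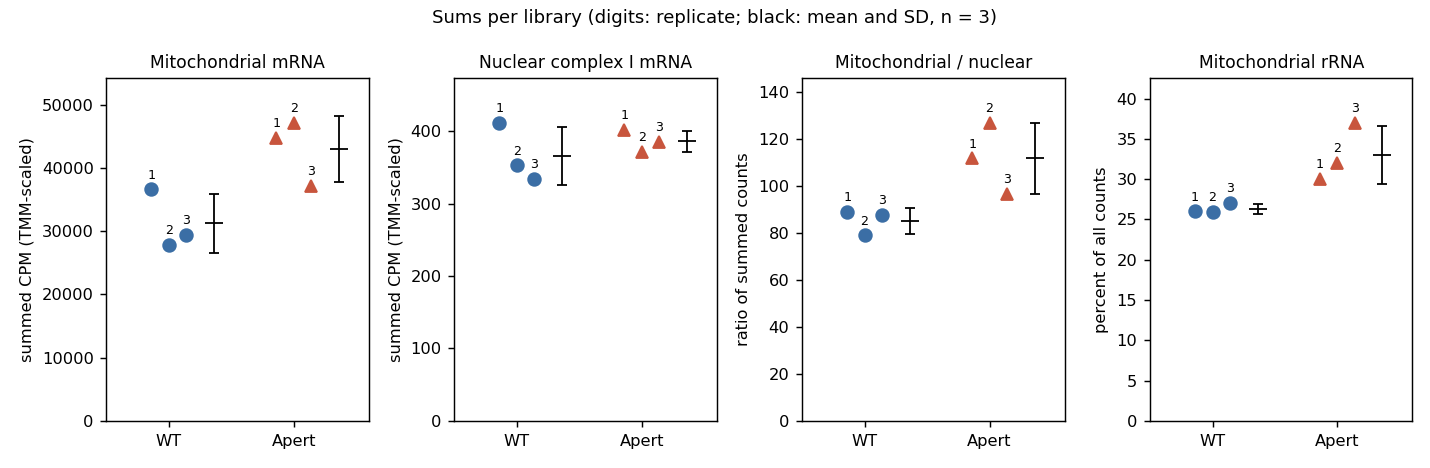
Per library, the summed CPM of the 13 mitochondrial protein genes, that of the 34 nuclear complex I genes, the ratio of their summed counts, and mitochondrial ribosomal RNA as a percentage of all counts, with replicate numbers beside points and black bars for mean and SD (n = 3). The ratio runs from 78.9 to 89.1 in WT and from 96.6 to 127 in Apert, while the nuclear sums overlap.

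The values moved with a correction for GC content. Median GC content was 37.1% for the mitochondrial and 51.4% for the nuclear members, so base composition and genome of origin cannot be told apart here. With each library corrected for GC content, the mitochondrial median fell from 0.54 to 0.28, the nuclear median was 0.09, the difference between them was 0.19, and edgeR called 0 mitochondrial genes (mt-Co2 adjusted p = 0.167, where 3 of 13333 genes were called higher). With the replicate number as a block as well, the difference was 0.20 and mt-Co2 was called by edgeR at 0.87 (adjusted p = 0.0398). All 13 mitochondrial values were positive in each of 19 fits, the GC-corrected ones included. Leaving out 1 library gave 0 to 2 called mitochondrial genes. The number was 0 without WT replicate 2, WT replicate 3, Apert replicate 2 or Apert replicate 3. It was 2 (mt-Nd2 and mt-Co2) without WT replicate 1 or Apert replicate 1. Calls over all tested genes changed as well. In the fits with 0 mitochondrial calls, edgeR called 22 of 13709, 0 of 14107, 2 of 14061 and 10 of 14120 genes higher, in that order. In the fits with 2, it called 13 of 13766 and 119 of 13848 genes higher.

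**Figure D4:**
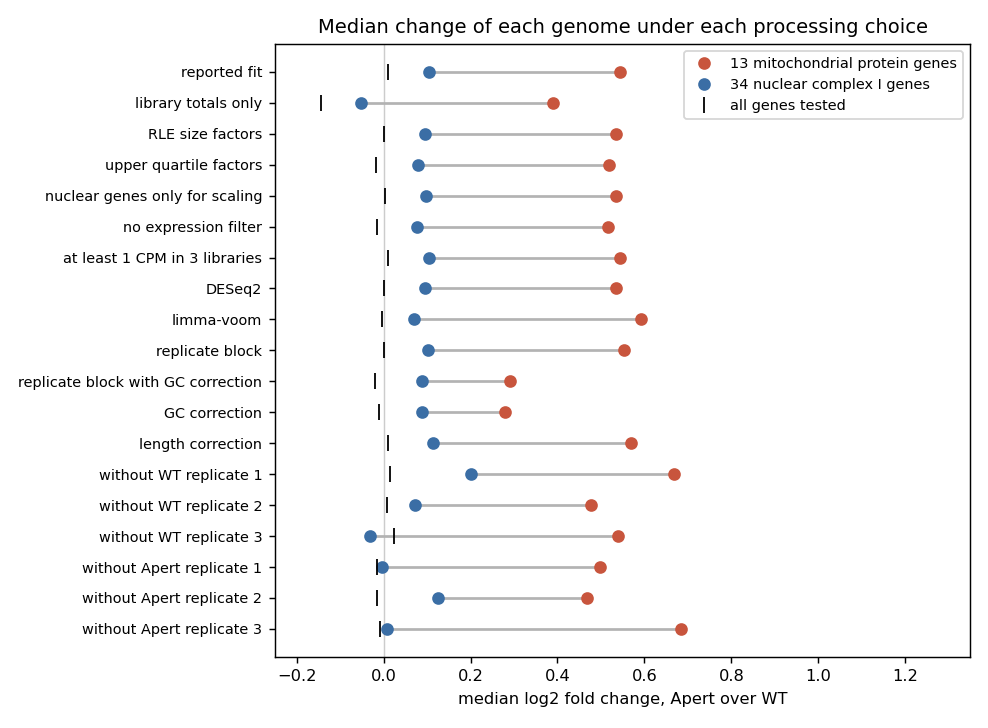
Median log2 fold change (Apert over WT) of the 13 mitochondrial genes in red, the 34 nuclear genes in blue and all tested genes as black ticks, under each of the 19 fits. The red point lies right of the blue one in every row, and the rows with GC correction have the shortest distance, 0.19 without and 0.20 with the replicate number as a block.

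Other measures moved with the groups and are given beside these results. Mitochondrial ribosomal RNA, mt-Rnr1 and mt-Rnr2, held 26.0%, 25.9% and 27.1% of counts in WT and 30.0%, 32.0% and 37.0% in Apert (exact permutation p = 0.1, two-sided, the smallest that 3 against 3 can give). The log2 fold changes were 0.54 (SE 0.14) for mt-Rnr1 and 0.46 (SE 0.12) for mt-Rnr2, and edgeR called neither (adjusted p of 0.105 and 0.107), while DESeq2 and limma-voom called both. The ratio of ribosomal to protein-gene counts was 6.67, 9.02 and 8.61 in WT and 6.99, 6.98 and 10.9 in Apert and overlapped. Libraries held 6760510 to 10834744 counts, and 18823 ± 128 genes were detected in WT against 18376 ± 143 in Apert (SD, n = 3; exact permutation p = 0.1). A point mutation is not seen in gene counts, so Fgfr2 gives no check of the labels.

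Cartilage markers were abundant, 16 of 16 tested, with summed levels of 38565 to 49658 CPM in WT and 39672 to 43022 in Apert. The single markers behind that sum differed: 12 of 16 had negative and 4 positive log2 values, from -0.67 to 0.85, with a median of -0.22. Of the 16, 4 were lower and 1 higher in Apert without overlap, against 7.7% and 8.92% of all tested genes. The markers with the smallest p were Sox9, the master regulator of cartilage, at -0.67 (SE 0.18) and Chad, a matrix protein, at -0.63 (SE 0.15). No cartilage marker was called by edgeR or limma-voom, and 2 were called by DESeq2, which called 204 of all 13333 genes. At an unadjusted p under 0.05 edgeR had 1 cartilage marker higher and 4 lower, against 6.35% and 5.01% of all tested genes. Perichondrium and fibrous markers, 10 of 10 tested, were at 2210 to 2490 CPM in WT and 3073 to 3325 in Apert, without overlap. Of these markers, 8 had positive and 2 negative log2 values, with a median of 0.60. edgeR called 2 of them higher, against 0.398% of all tested genes. DESeq2 called 4 and limma-voom 2, where they called 204 and 68 of all 13333 genes. At an unadjusted p under 0.05 edgeR had 7 higher and 0 lower, against 6.35% and 5.01% of all tested genes. Glial markers, 7 of 8 tested, were at 366 to 434 CPM in WT and 277 to 330 in Apert, also without overlap, and Foxd3 was at 0. Skeletal muscle, a tissue rich in mitochondria, gave 0 of 10 tested markers, with sums of 0.0867 to 1.52 CPM in WT and 0.408 to 1.62 in Apert, and Myh8, Myod1, Myog and Ckm at 0 in every library. Epithelial markers gave 0 of 10 tested, with Krt14 and Cdh1 at 0. The part of ribosomal RNA, genes detected, cartilage, perichondrium and glial markers in the mitochondrial values was not tested.

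A further fit expressed every gene relative to mitochondrial messenger RNA, with the summed counts of the 13 genes as library size. It asks which mitochondrial genes depart from the common change and how the nuclear genes stand against it. None of the 13 was called by edgeR, with mt-Co2 at 0.69 (SE 0.26, unadjusted p = 0.0106, edgeR adjusted p = 0.0850) and mt-Nd2 at 0.27 (SE 0.19) relative to the sum. Only mt-Co2 had an unadjusted p under 0.05, and no other test was run on this scale. Against the same sum, 1 of 34 nuclear genes was called lower in Apert, Ndufs8, at -1.42 (SE 0.42, edgeR adjusted p = 0.0422), and 0 higher. On that scale 6.06% of all tested genes were called lower and 0.0375% higher, and the median of all genes was -0.45 against -0.34 for the nuclear members. The Ndufs8 call was lost with GC correction, where 2.66% of all tested genes were called lower, and when any 1 library was left out. The share of all genes called lower was 12.9%, 0.277% and 0.22% without WT replicates 1, 2 and 3. It was 3.35%, 0% and 8.98% without Apert replicates 1, 2 and 3.

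The partner genes of the same pathways were read from lists of the nuclear subunits of the other complexes, complex I assembly and the mitochondrial DNA and RNA machinery. None of their genes was called by edgeR, DESeq2 or limma-voom. The 13 assembly factors had a median log2 value of -0.02, with 6 positive and 7 negative. Ndufaf2 and Ndufaf3, the assembly genes with the smallest p, stood at 0.82 (SE 0.43) and -0.68 (SE 0.44). Succinate dehydrogenase, complex II, is wholly nuclear and had 4 of 4 genes negative, with a median of -0.23; Sdha went from 98.1 ± 4.52 to 85.7 ± 13.5 CPM (SD, n = 3). Its overlapping groups and those of Sdhc, at -0.21 (SE 0.21), left no called difference.

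Complexes III, IV and V each combine mitochondrial and nuclear products. Their nuclear subunits had medians of 0.07 (9 genes), 0.00 (11 genes) and -0.02 (15 genes). At an unadjusted p under 0.05, where 6.35% of all tested genes were higher and 5.01% lower, complex III had 0 genes, complex IV had Cox5a, at 0.86 (SE 0.39, edgeR adjusted p = 0.419), and complex V had Atp5b, at 0.35 (SE 0.13, edgeR adjusted p = 0.328). Atp5b, the catalytic subunit of ATP synthase, went from 655 ± 39.9 to 834 ± 108 CPM. Uqcrb and Uqcrh of complex III stood at 0.54 and -0.22, Cox6a1 of complex IV at -0.52 and Atp5g2 of complex V at -1.04, none of them called.

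The machinery that copies, transcribes and processes mitochondrial DNA and RNA had 20 of 21 genes tested, 15 positive and 5 negative, with a median log2 value of 0.21. Pnpt1, the RNA exonuclease of the organelle, went from 34.9 ± 9.42 to 51.0 ± 4.73 CPM without overlap, with a log2 value of 0.55 (SE 0.21, unadjusted p = 0.0161, edgeR adjusted p = 0.314). Mterf1a, a transcription termination factor, stood at -1.06 (SE 0.54) from 3.23 ± 0.94 and 1.54 ± 0.203 CPM. Regulators of biogenesis had 7 of 8 genes tested and a median of 0.11. Pprc1, a coactivator, was at -0.34 (SE 0.20) and Gabpb1, a partner of the ETS factor GABPA, at 0.27 (SE 0.16).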

How the data were processed

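RNA-seq counts of 6 libraries, 3 WT and 3 Apert, were used. The values are whole-number fragment counts per gene, made by the authors with featureCounts 1.4.4 over exons of GRCm38 gene models, for read pairs and without strand, per the file headers. Multiple mapping was not turned on in the header options. Also listed in the submitters' processing notes are STAR 2.5.2b, cutadapt and the build mm10. No molecular identifiers are described, so depth covers counting error only: totals were 6760510 to 10834744 counts, and low genes are the least precise.

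The members and lists were chosen with earlier results of these data known. Counts were fitted in R 4.3.3 with edgeR 4.0.16 (filterByExpr, TMM scaling, glmQLFit and glmQLFTest, Benjamini-Hochberg at 0.05 over 13333 genes, no covariate); scripts were tested on simulated data. CPM use TMM-scaled totals. The SE is the log2 fold change divided by the square root of F. DESeq2 1.42.0 and limma 3.58.1 (voom), other scalings and filters, GC and length offsets (mgcv 1.9.3), a replicate block and left-out libraries were alternatives. Copies were sought with blastn 2.17.0 in GENCODE M21 transcripts (at least 85% identity over 100 bases).

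Values in every library are given for the 13 mitochondrial genes, the 4 largest nuclear rises and falls and the smallest p in each of 3 nuclear role groups; each other pathway list gives its 2 smallest p. Of 218 listed symbols, 1 was unmatched. Replicate numbers were not taken as pairs in the reported fit. To look for pairing, the mean of the group was subtracted for each gene from log2 CPM, and the remaining deviations were correlated. Deviations of same-numbered WT and Apert libraries correlated at 0.21, 0.02 and 0.09, and those of differently numbered ones at -0.15 to 0.07.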

Additional observations from a re-analysis of the deposited data

How the results depend on the processing

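Every fit used 3 or fewer animals a group, so calls near the threshold turn on single libraries. Over left-out libraries, 0 to 119 of all tested genes were called higher, against 53 in the reported fit. The number of called mitochondrial genes was 1 as reported, 5 without an expression filter, with DESeq2, with limma-voom and with the replicate block, 4 at an adjusted p of 0.1, 0 with GC correction, 0 without the 6 genes of the copied stretch (chosen after seeing the data), and 0 to 2 over the left-out libraries. The mitochondrial median of 0.54 became 0.28 with GC correction and 0.29 with the replicate block and GC correction together, where 1 mitochondrial gene (mt-Co2) was called. The nuclear median of 0.10 became -0.052 with library totals, where the median of all genes was -0.14, and ran from -0.031 to 0.20 over left-out libraries. The difference of medians, 0.44, became 0.19 with GC correction, 0.20 with the replicate block and GC correction, and 0.34 to 0.68 over left-out libraries. Relative to mitochondrial messenger RNA, the nuclear genes called lower went from 1 to 0 with GC correction. The number was 0 in each left-out fit, with medians from -0.54 to -0.27, where 0% to 12.9% of all tested genes were called lower. With the replicate block the difference of medians was 0.45, and mt-Nd1, mt-Nd2, mt-Nd4, mt-Nd5 and mt-Co2 were called. Equal replicate numbers alone do not show that libraries were paired. For the single genes given in full, 392 of 418 values under other settings kept direction and side of the threshold, 21 came past it (mt-Nd1, mt-Nd2, mt-Nd4, mt-Nd5), 5 fell short (mt-Co2) and 0 turned. The cause of these changes was not tested. Counts of 8 to 511 per library limit the nuclear members.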

Other observations

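The ratio of mt-Nd2 to mt-Co1 counts, which pairs the genes with the highest and lowest fold change outside the copied stretch and was chosen after its values were seen, with no test, was 0.197, 0.159 and 0.160 in WT and 0.217, 0.240 and 0.231 in Apert, with means of 0.172 ± 0.0216 and 0.229 ± 0.0118 (SD, n = 3). In the fit relative to mitochondrial messenger RNA, edgeR called neither gene, which decides nothing, since both are part of the sum they were set against. The pseudogene Gm13339, whose sequence resembles part of mt-Nd2, had 127, 40 and 69 counts in WT and 241, 178 and 136 in Apert, small beside the counts of mt-Nd2. The whole mitochondrial chromosome held 29.6% ± 0.756 of counts in WT and 37.1% ± 3.06 in Apert, most of it ribosomal RNA.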
